A study of Mus musculus with 64 samples.

Results

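The comparison described here is that of 4 libraries of prefrontal cortex (PFCx) RNA from mice given haloperidol with 8 libraries of PFCx RNA from mice given saline, 12 of the 64 libraries of the series. The libraries were chosen by the tissue and treatment in their labels. All mice were adult C57BL/6N males of 8 to 10 weeks, without any genetic change, and were decapitated 2 h after a single intraperitoneal injection. Haloperidol was dissolved at 1 mg/kg in saline to which a drop of HCl had been added, and the controls received saline alone, so the drug and its vehicle cannot be told apart. The PFCx piece held the cingulate, prelimbic and infralimbic cortex and part of the dorsal peduncular cortex, and total RNA depleted of ribosomal RNA was sequenced.

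The saline libraries carry the names set I and set II, with 4 libraries in each. The labels give no set for the drug groups, but the largest principal component of the 32 PFCx libraries (46.8% of the variance of 15688 genes) placed haloperidol, risperidone, methamphetamine and saline set I between 9.95 and 39.3, and the remaining libraries between -51.3 and 0.393. A second component (9.26%) set the 4 libraries numbered 4 of those groups, at -33.3 to -18.7, apart from the other 28, at -12.1 to 15.2. Each gene was therefore compared with all 8 saline libraries, which include the difference between the sets, and again with the 4 of saline set I, which lie with haloperidol on the first component. The estimated aligned sequence of the 12 libraries was 1.52 to 2.79 gigabases, with 108878 to 110429 transcripts above 0. Nothing in the labels says that the samples are separate animals, and p-values measure only the spread between these samples.

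Haloperidol is an antipsychotic that blocks the D2 class of dopamine receptors and binds, less tightly, several serotonin and adrenergic receptors. Dopamine from the midbrain reaches the PFCx, and D2 receptors are dense in the striatum and sparse in the cortex. When neurons are strongly stimulated, calcium and kinase cascades activate factors already present in the nucleus, such as CREB and SRF, and within minutes a set of immediate early genes is transcribed without new protein synthesis. Their products include transcription factors (Fos, Egr and Nr4a families), synaptic effectors such as Arc, and phosphatases of the Dusp family that switch the MAP kinases off again. Injection and handling can release corticosterone, which acts through the glucocorticoid receptor on a separate set of genes, such as Tsc22d3 and Fkbp5.

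The tissue label was compared with marker genes. The 9 markers of cortical projection neurons summed to 190 to 220 FPKM (reads divided by transcript length and by library size) in haloperidol and 183 to 216 in saline set I. Slc17a7, the vesicular glutamate transporter of cortical excitatory neurons, stood at 113 to 137 FPKM after haloperidol and at 111 to 152 FPKM over the 8 saline libraries. Markers of striatal neurons, 10 in number, summed to 34.9 to 40.5 FPKM in haloperidol, 35.9 to 52.8 in saline set I and 33.5 to 106 in saline set II, against 693 to 805 in the haloperidol libraries of the nucleus accumbens (NAc). The 5 red blood cell markers summed to 86.6 to 104 FPKM in haloperidol, 88.9 to 127 in saline set I and 38.2 to 58.3 in saline set II, so that they separate the saline sets, and their part in the comparison with all saline was not tested. No gene of the 12 marker lists passed the test against all saline or against set I, where 0.163% and 0.0217% of all genes did. In bulk tissue, fewer cells of a type and less RNA per cell cannot be told apart.

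After haloperidol, 46 genes rose and 14 fell against all saline, at an adjusted p under 0.05 with limma on log2(FPKM + 1), out of 36800 genes tested (0.163%, or 0.125% higher and 0.038% lower). Against saline set I alone, 5 genes rose (0.0136%) and 3 fell (0.00815%), together 0.0217%. Both comparisons called the immediate early genes Arc, Fos, Fosb and Dusp5 and the mitochondrial carrier Ucp2 as higher, and the zinc finger gene 2210418O10Rik as lower. All 60 genes called against all saline had the same sign against saline set I, and all 60 had an unadjusted p under 0.05 there, where 5.94% of all genes did. The 2 comparisons share the haloperidol libraries and saline set I, so the second is no independent repeat of the first.

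The counts depended on the libraries and on the fit. Fitted on the 12 libraries alone, without the other drug groups, no gene passed against all saline with limma, although 3731 had an unadjusted p under 0.05. The same restriction left 2 genes against saline set I. Without the libraries numbered 4, 9 genes passed against all saline and 4 against saline set I. Without haloperidol replicate 1 the numbers were 8 and 0, and without saline set I replicate 2 they were 380 and 3. Of these 380 against all saline, 126 rose and 254 fell. Without saline set I replicate 3, 83 rose and 184 fell. In the remaining fits with 1 library left out, more genes rose than fell against all saline. After scaling each library to its 75th percentile, 36 genes rose and 19 fell against all saline. Among haloperidol, risperidone, methamphetamine and saline set I the replicate numbers paired the libraries. With the replicate number as a block, fitted on these groups alone, 4 genes passed against saline set I (0.0109%). They were Arc, Nr4a1, Spns2 and Fosb, all higher. The block and the smaller number of libraries changed together, so their parts cannot be told apart. Spns2, a transporter of sphingosine-1-phosphate, was at 6.89 to 8.66 FPKM after haloperidol and at 4.97 to 5.73 in set I (adjusted p = 0.0288 with the block and 0.253 without), and was named after its values were seen.

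Promoter sequences are given first for 5 of the genes that rose against all saline. They were picked because each holds at least 1 of the motifs searched, so the matches in them are no result. The sequences are from RefSeq on the build GRCm38.p6 and run over the 200 bases before the RefSeq start. Capitals mark TGACG, the core of the cAMP response element (CRE) bound by CREB, on either strand (CGTCA where it lies on the other strand), and the CArG box of SRF. The full CRE, TGACGTCA, holds this core on each strand.
Fos, chr12:85473690-85473889, plus strand: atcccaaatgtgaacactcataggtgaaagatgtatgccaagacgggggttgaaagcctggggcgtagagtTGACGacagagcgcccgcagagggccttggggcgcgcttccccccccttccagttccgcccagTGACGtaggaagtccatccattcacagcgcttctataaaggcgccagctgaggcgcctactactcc
Fosb, chr7:19310046-19310245, minus strand: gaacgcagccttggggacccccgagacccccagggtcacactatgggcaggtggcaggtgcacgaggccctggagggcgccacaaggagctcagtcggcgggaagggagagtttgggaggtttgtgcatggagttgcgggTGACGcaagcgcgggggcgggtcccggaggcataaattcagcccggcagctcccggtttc
Nr4a1, chr15:101266646-101266845, plus strand: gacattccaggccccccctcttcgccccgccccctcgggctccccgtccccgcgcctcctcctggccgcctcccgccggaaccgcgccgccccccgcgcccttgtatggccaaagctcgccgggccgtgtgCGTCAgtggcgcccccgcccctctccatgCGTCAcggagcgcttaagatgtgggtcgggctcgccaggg
Dusp5, chr19:53528945-53529144, plus strand: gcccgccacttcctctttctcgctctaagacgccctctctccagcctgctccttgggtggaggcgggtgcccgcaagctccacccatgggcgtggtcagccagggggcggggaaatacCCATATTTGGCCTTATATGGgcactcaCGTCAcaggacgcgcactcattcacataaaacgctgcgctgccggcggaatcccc
Dusp1, chr17:26508473-26508672, minus strand: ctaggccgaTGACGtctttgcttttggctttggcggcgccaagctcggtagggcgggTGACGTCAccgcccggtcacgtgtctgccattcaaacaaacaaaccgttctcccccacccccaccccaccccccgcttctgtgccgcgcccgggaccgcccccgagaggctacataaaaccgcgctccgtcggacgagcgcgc

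The Fos window held 2 CRE cores, beginning 129 and 66 bases before the start, that of Fosb 1 at 60 bases and that of Nr4a1 2 at 69 and 40 bases. Dusp5 held 2 CArG boxes in tandem, at 82 and 72 bases, and a CRE core at 55 bases. Dusp1 held a full CRE at 143 bases and a further CRE core at 191 bases. No CArG box was matched in the windows of Fos, Fosb, Nr4a1 and Dusp1, and the window of Slc2a1, another gene that rose, held neither motif. Of all 32843 promoters of the table, 15.7% held at least 1 CRE core, 3.36% at least 2, 1.47% a full CRE and 1.18% a CArG box in a window of this length. Among the genes that rose against all saline, 32 of 46 had a window, and the first window of each was counted. Of these, 11 (34.4%) held a CRE core, 5 (15.6%) at least 2, 2 (6.25%) a full CRE and 1 (3.12%) a CArG box. The shares over all promoters counted every window instead, and a full CRE counted as 2 cores in both. The matches are letters in a window, and whether a factor binds there was not measured. The promoters of Arc and Klf10 were not in the table used.

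Arc, on chromosome 15 from 74669083 to 74672570, encodes a cytoskeleton-associated protein that is translated near active synapses and promotes the removal of AMPA receptors. Its level in the 4 haloperidol libraries was 16.8, 14.3, 13.1 and 15.6 FPKM, a mean of 14.9 ± 1.58 (SD, n = 4). The libraries of saline set I stood at 6.14, 7.10, 5.36 and 6.46 FPKM, and those of saline set II at 10.1, 7.99, 7.91 and 6.44 FPKM. Every haloperidol library lay above every saline library, and the mean was 2.39 times that of set I and 1.84 times that of set II. The log2 difference was 0.98 ± 0.15 (SE) against all saline (adjusted p = 0.00356) and 1.13 ± 0.16 against set I (adjusted p = 0.00547). With the replicate block, the adjusted p against set I was 0.00197, and without the libraries numbered 4 or without haloperidol replicate 1 it was 0.0839 and 0.0642.

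Fos and Fosb encode partners of the Jun proteins in the AP-1 transcription factor. Fos (chromosome 12, 85473890 to 85477273) was at 11.6, 8.22, 8.42 and 8.93 FPKM after haloperidol, at 4.87, 5.34, 3.31 and 4.55 in saline set I and at 6.59, 5.57, 6.23 and 6.30 in saline set II. The groups did not overlap, and the log2 difference was 0.71 ± 0.13 against all saline (adjusted p = 0.0235) and 0.90 ± 0.13 against set I (adjusted p = 0.00547). With the replicate block, Fos no longer passed against set I (adjusted p = 0.0511). Fosb (chromosome 7, 19302721 to 19310045) was lower in level, at 3.95, 3.12, 3.07 and 4.19 FPKM after haloperidol, against 1.46, 2.08, 1.47 and 1.79 in set I and 2.11, 1.56, 1.96 and 1.63 in set II. Its mean was 2.11 times that of set I and 1.97 times that of set II, without overlap. The log2 difference was 0.73 ± 0.10 against all saline (adjusted p = 0.00133) and 0.76 ± 0.12 against set I (adjusted p = 0.0107), and Fosb also passed with the block (adjusted p = 0.0288). Against set I it passed under 11 of 16 alternatives. Those it failed included leaving out the libraries numbered 4 or haloperidol replicate 1.

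Dusp5, a nuclear phosphatase that removes the activating phosphates from ERK and holds it in the nucleus, lies on chromosome 19 from 53529109 to 53542431. It stood at 1.53, 1.67, 1.62 and 1.37 FPKM after haloperidol, at 0.915, 0.761, 0.933 and 0.689 in set I and at 0.786, 0.785, 0.806 and 0.978 in set II. The 8 saline libraries formed a narrow range from 0.689 to 0.978 around a median of 0.796, below every haloperidol library. On the log2 scale the difference was 0.48 ± 0.07 against all saline (adjusted p = 0.00133) and 0.48 ± 0.08 against set I (adjusted p = 0.0107), and with the block the adjusted p against set I was 0.0675. On the log2(FPKM + 1) scale the change of a gene at this level is understated, since the ratio of the means was 1.88 against set I.

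Ucp2, a carrier of the inner mitochondrial membrane (chromosome 7, 100493337 to 100502020), was spread widely among the haloperidol libraries. It stood at 5.84, 7.08, 7.77 and 3.70 FPKM after haloperidol, at 3.40, 2.30, 2.45 and 3.23 in set I and at 2.68, 2.35, 2.77 and 2.37 in set II. Haloperidol replicate 4 was the lowest of its group and just above saline set I replicate 1. In the fit, the log2 difference was 0.91 ± 0.13 against all saline (adjusted p = 0.00133) and 0.86 ± 0.15 against set I (adjusted p = 0.0185), and with the block the adjusted p against set I was 0.273.

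**Figure D1:**
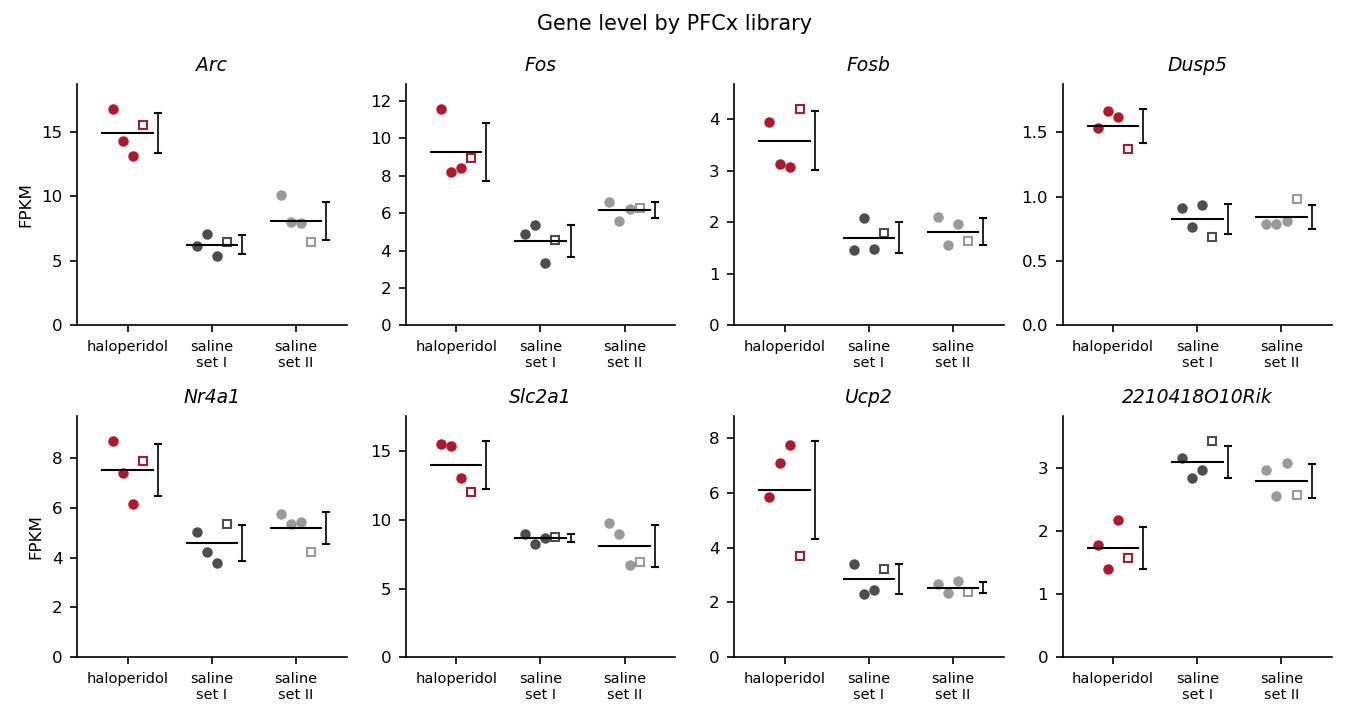
Level in FPKM (vertical axes, from 0) of 8 genes in each PFCx library of the haloperidol, saline set I and saline set II groups. Points are libraries, open squares are the libraries numbered 4, horizontal lines are group means and bars are ± 1 SD (n = 4). In 7 genes all 4 haloperidol libraries lie above all 8 saline libraries, and in 2210418O10Rik all 4 lie below. Ucp2 in haloperidol replicate 4 is at 3.70 FPKM, close to the saline range that ends at 3.40.

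Of the 25 immediate early transcription factors listed, 5 rose (Fos, Fosb, Junb, Nr4a1 and Klf10) and 1 fell (Klf6) against all saline. With the replicate block Egr1 and Egr3 passed as well, making 7 that rose. Against all saline this block also took in saline set II, where the numbers showed little pairing with haloperidol. Against saline set I, Fos and Fosb rose and the other 23 did not pass. Of all genes tested, 0.125% rose and 0.038% fell against all saline, and 0.0136% rose against set I. In 7 of the 25 genes all haloperidol libraries lay above all 8 saline libraries, where 0.565% of all genes tested did so, and in 11 they lay above all 4 libraries of set I (1.55% of all genes). The median log2 difference of the list was 0.30 against all saline and 0.27 against set I, beside -0.00418 and -0.00755 over all genes tested. This list and those that follow were chosen with earlier results of these data known. Setting them beside all genes is therefore no independent test. The other genes above all 8 saline libraries were Jun and Egr3, and those above set I alone were Fosl2, Egr1, Egr4 and Nr4a2.

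Junb, another AP-1 partner, stood at 7.70 to 11.5 FPKM after haloperidol, with the 8 saline libraries at 2.79 to 6.80 around a median of 5.05. Its log2 difference was 0.80 ± 0.17 against all saline (adjusted p = 0.0375) and 0.72 ± 0.19 against set I (adjusted p = 0.357). Nr4a1, an orphan nuclear receptor, was at 8.67, 7.39, 6.15 and 7.87 FPKM after haloperidol and at 5.02, 4.22, 3.79 and 5.35 in set I. Replicates 3 were the lowest in both groups. The log2 difference of Nr4a1 was 0.53 ± 0.11 against all saline (adjusted p = 0.0341) and 0.61 ± 0.12 against set I (adjusted p = 0.0959), and with the block the adjusted p against set I was 0.0288.

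Not all members of a family passed. Egr1 and Egr3, zinc finger factors induced by SRF, stood at 15.1 to 18.8 and 14.3 to 17.7 FPKM after haloperidol, against 10.5 to 12.2 and 9.06 to 12.5 in set I, with log2 differences against set I of 0.54 ± 0.10 (adjusted p = 0.0569) and 0.55 ± 0.15 (adjusted p = 0.411). Against all saline the differences were 0.41 ± 0.10 for Egr1 (adjusted p = 0.0802, and 0.0223 with the block) and 0.55 ± 0.13 for Egr3 (adjusted p = 0.085, and 0.0343 with the block). In saline set II Egr1 reached 15.7 FPKM, within the haloperidol range. Egr2 overlapped between the groups, at 2.15 to 3.56 FPKM after haloperidol and 0.921 to 2.95 in set I. Npas4, a factor specific to neuronal activity, was at 2.54 to 3.13 FPKM after haloperidol and at 1.73 to 2.83 in set I, with a log2 difference of 0.27 ± 0.14 (adjusted p = 0.875). Klf6, in contrast to Klf10 of the same family, fell against all saline by 0.39 on the log2 scale (adjusted p = 0.00404), from 7.23 to 9.09 FPKM in saline to 5.35 to 6.57 after haloperidol. Klf10 stood at 6.18 to 7.22 FPKM after haloperidol and at 4.78 to 5.75 in saline (log2 difference 0.33 ± 0.06, adjusted p = 0.0267).

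Among 25 effectors induced by activity, Arc, Bdnf, Gadd45b and Trib1 rose against all saline and none fell. Arc alone rose against saline set I. Of all genes tested, 0.125% and 0.0136% rose in these comparisons. All haloperidol libraries lay above all 8 saline libraries in 5 genes, the 4 that rose and Sik1, and above set I in 9 (0.565% and 1.55% of all genes tested). Bdnf, the neurotrophin that supports synapses and dendrites, was at 5.51, 5.22, 4.71 and 5.004 FPKM after haloperidol, at 4.19, 4.36, 3.91 and 4.38 in set I and at 3.69, 3.70, 3.92 and 2.94 in set II. Its mean was 1.21 times that of set I and 1.44 times that of set II, so the sets gave unequal values (log2 difference against all saline 0.33 ± 0.07, adjusted p = 0.0433, and against set I 0.23 ± 0.07, adjusted p = 0.555). Gadd45b, a stress and DNA demethylation factor, was at 1.88 to 2.77 FPKM after haloperidol and at 0.806 to 1.48 in saline.

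Homer1, the scaffold of metabotropic glutamate receptors, depended on the control. It stood at 56.1, 54.2, 51.2 and 51.1 FPKM after haloperidol and at 40.2, 40.9, 43.3 and 47.1 in set I, without overlap, but at 57.6, 54.1, 54.3 and 57.7 in set II. The log2 difference was 0.31 ± 0.07 against set I (adjusted p = 0.176) and 0.12 ± 0.09 against all saline (adjusted p = 0.58). Its transcript ENSMUST00000102752 was at 9.86 to 12.1 FPKM after haloperidol and at 6.497 to 7.86 in set I (log2 difference 0.52 ± 0.09, adjusted p over all transcripts = 0.0854).

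Of 16 MAP kinase phosphatases and inhibitors of the Spry and Spred families, Dusp1, Dusp5 and Dusp6 rose against all saline and none fell. Against set I, Dusp5 rose. Of all genes tested, 0.125% and 0.0136% rose in these comparisons. Haloperidol lay above all 8 saline libraries in 6 of them (0.565% of all genes tested), the 3 already named with Dusp4, Spred2 and Errfi1. Dusp6, the cytoplasmic phosphatase of ERK, was nearly even among the haloperidol libraries, at 10.05, 9.18, 10.04 and 9.90 FPKM, with saline at 6.39 to 7.91. Its log2 difference was 0.40 ± 0.07 against all saline (adjusted p = 0.017) and 0.37 ± 0.08 against set I (adjusted p = 0.175). Dusp1, which acts on p38 and JNK as well, was at 6.56, 8.11, 5.60 and 5.41 FPKM after haloperidol and at 2.87 to 5.14 in saline (log2 difference against all saline 0.63 ± 0.12, adjusted p = 0.0235).

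Glucocorticoid-responsive genes were the list with the most genes above saline. Of 25 genes, 6 rose against all saline (Tsc22d3, Nfkbia, Cdkn1a, Klf15, Ddit4 and Arl4d), none fell, and none passed against saline set I. Of all genes tested, 0.125% rose and 0.038% fell against all saline, and 0.0217% passed against set I. With the block Zbtb16 passed against all saline as well (adjusted p = 0.017, and 0.0857 without). That block also took in saline set II, where the numbers showed little pairing with haloperidol. In 10 of the 25 all haloperidol libraries lay above all 8 saline libraries, and in 12 they lay above set I. Over all genes tested the shares were 0.565% and 1.55%. The median log2 difference was 0.37 against all saline and 0.31 against set I, with 22 of the 25 genes positive in each. This list, too, was chosen with earlier results of these data known. The vehicle of haloperidol held a drop of HCl that the saline of the controls did not, and its part in these values was not tested.

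Tsc22d3, which encodes the glucocorticoid-induced leucine zipper, was at 14.96, 15.4, 13.7 and 12.4 FPKM after haloperidol, at 9.54, 7.95, 9.16 and 11.9 in set I and at 10.1, 10.1, 11.2 and 11.1 in set II. Replicate 4 of saline set I lay close below replicate 4 of haloperidol. The log2 difference was 0.45 ± 0.09 against all saline (adjusted p = 0.0279) and 0.51 ± 0.10 against set I (adjusted p = 0.0524). Sgk1, a kinase that acts on ion channels, was at 16.1, 20.1, 17.6 and 18.9 FPKM after haloperidol and at 9.69 to 15.6 in saline (log2 difference against all saline 0.42 ± 0.10, adjusted p = 0.0792). Fkbp5, a co-chaperone of the glucocorticoid receptor, was at 5.78, 5.95, 7.59 and 4.91 FPKM after haloperidol and at 3.35 to 4.96 in saline, an overlap by 1 library (log2 difference against all saline 0.46 ± 0.11, adjusted p = 0.085). Ddit4, an inhibitor of the mTOR pathway, was at 3.27 to 4.69 FPKM after haloperidol and at 1.71 to 3.03 in saline.

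**Figure D2:**
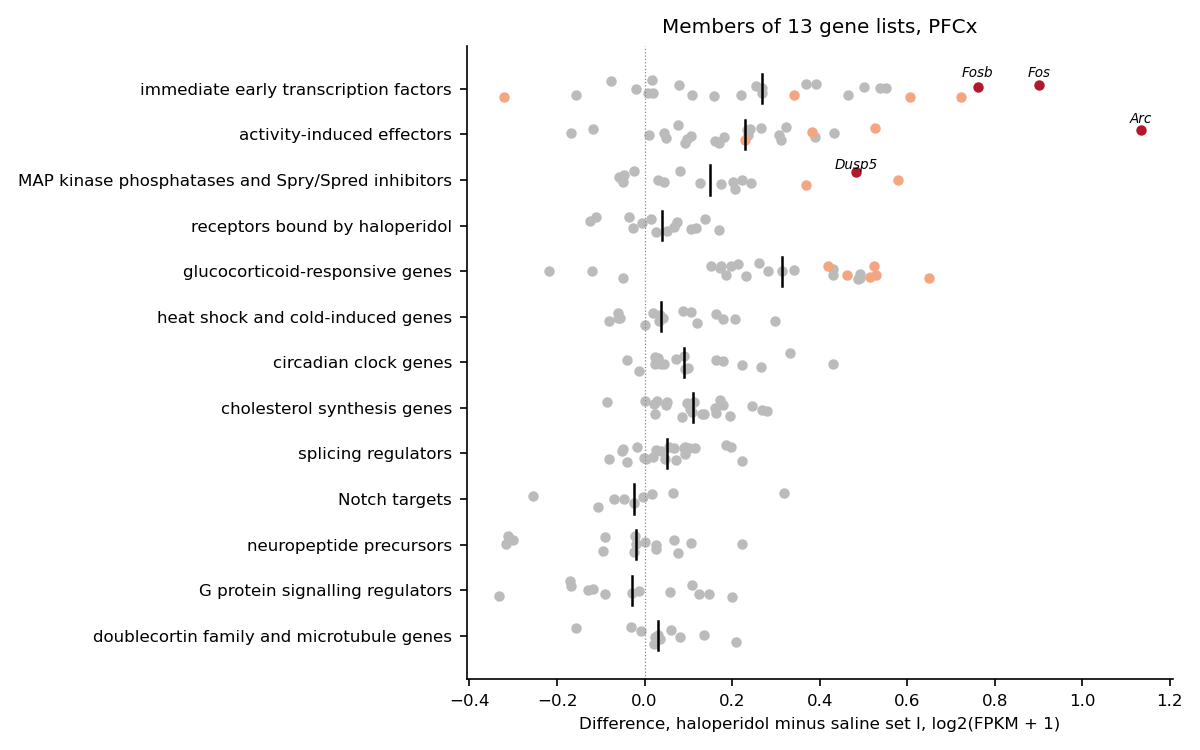
Difference between haloperidol and saline set I, log2(FPKM + 1), horizontal axis, for each tested member of 13 gene lists (rows; vertical jitter within a row has no meaning). Red points passed against saline set I, orange points passed against all saline alone, grey points passed neither, and black lines are list medians. The medians of the immediate early, effector and glucocorticoid rows are at 0.27, 0.23 and 0.31, and those of the Notch, neuropeptide and G protein regulator rows lie between -0.03 and 0.

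The genes that haloperidol acts upon showed no call. None of the 14 tested receptors it binds passed either test, and none was without overlap against set I. Over all genes, 0.163% passed against all saline, and 1.55% lay above and 1.71% below set I. A list of 14 would seldom hold a call at the first share and could well hold no gene without overlap at the others. This is therefore no result about the receptors. Drd2, the main target, was at 0.312, 0.460, 0.388 and 0.587 FPKM after haloperidol and at 0.437, 0.209, 0.211 and 0.667 in set I. Drd1 stood at 1.97 to 3.20 FPKM after haloperidol and at 1.98 to 3.20 in set I. Htr2a, the cortical serotonin receptor, was at 4.07 to 5.73 and 4.66 to 5.30 FPKM. Drd4 lay below the filter.

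The remaining lists held no call either. Over all genes, 0.163% were called against all saline and 0.565% lay above all 8 saline libraries. Few or none were therefore to be met in lists of this size. Of 16 heat shock and cold-induced genes, Cirbp, an RNA-binding protein induced by mild cooling, was above all 8 saline libraries, at 16.7 to 19.2 FPKM against 11.8 to 15.4 (log2 difference against set I 0.30 ± 0.12, adjusted p = 0.773). Of 17 circadian clock genes, Per3 was above all saline, at 9.20 to 10.2 FPKM against 7.17 to 8.72, and Per1 and Nfil3 above set I. Of 22 tested cholesterol synthesis genes, Msmo1 and Pmvk were above all saline. In the splicing regulators (22 genes), Notch targets (9), neuropeptide precursors (15) and G protein signalling regulators (13), no gene stood above all 8 saline libraries.

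Dclk1, a doublecortin-like kinase of microtubules that was the subject of the study, had 15 transcripts in the tables. All were tested, and none passed in either comparison. Of all 84661 transcripts tested, 0.0248% passed against all saline and none against set I, so this is no result about Dclk1. By quantitative PCR on other samples, the paper reported a slight decrease in the PFCx after haloperidol of a variant with part of an intron. The transcript with the highest mean, ENSMUST00000198437, was at 31.5, 18.6, 28.8 and 30.5 FPKM after haloperidol, at 22.8, 28.7, 25.3 and 21.3 in set I and at 27.5, 27.2, 32.7 and 30.9 in set II. The groups overlapped, and the log2 difference against set I was 0.13 ± 0.13 (adjusted p over all transcripts = 0.97). Of the other 10 tested genes of the doublecortin and microtubule list, Dclk3 stood above all 8 saline libraries, at 5.98 to 6.73 FPKM against 4.84 to 5.67 (adjusted p = 0.144 against all saline).

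The other genes with the lowest p among those called as higher against all saline, but not against set I, were Slc2a1, Zfp189, Taf12, Dusp6 and Arl4d. Slc2a1 encodes the glucose transporter of the blood-brain barrier and glia. It was at 15.5, 15.4, 13.04 and 12.01 FPKM after haloperidol, at 8.97, 8.26, 8.69 and 8.77 in set I and at 9.78, 8.95, 6.70 and 6.96 in set II, and no library overlapped. The log2 difference was 0.68 ± 0.10 against all saline (adjusted p = 0.00344) and 0.62 ± 0.12 against set I (adjusted p = 0.0524). The 4 endothelial markers summed to 16.6 to 20.8 FPKM after haloperidol and to 17.0 to 21.0 in set I. They did not move together, since 3 of the 4 were higher than in set I and the lowest log2 difference was -0.62. Zfp189, a zinc finger repressor, was at 2.09 to 3.08 FPKM against 0.899 to 1.87 in saline, and Taf12, a subunit of the general factor TFIID, at 2.98 to 3.31 against 1.04 to 2.54. The highest log2 difference among the called genes, 1.33 ± 0.26 against all saline (adjusted p = 0.0279), was that of Gm25289, an snRNA picked after its values were seen, at 1.59 to 4.05 FPKM after haloperidol and 0 to 2.61 in saline, with overlap. It passed under 11 of 20 alternatives.

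Fewer genes fell. 2210418O10Rik, on chromosome 2 from 176226569 to 176240328, is a zinc finger gene that passed in both comparisons. The gene passed under 15 of 20 alternatives against all saline, but under only 5 of 16 against set I. It was at 1.79, 1.41, 2.18 and 1.57 FPKM after haloperidol, at 3.16, 2.84, 2.97 and 3.43 in set I and at 2.98, 2.56, 3.09 and 2.58 in set II, with log2 differences of -0.53 ± 0.09 against all saline (adjusted p = 0.0119) and -0.59 ± 0.10 against set I (adjusted p = 0.0278, and 0.0511 with the block). Among its transcripts with values, the annotated one of 195 bases was at 2.23e-37 to 0.382 FPKM after haloperidol and at 0.631 to 1.83 in set I, while that of 3823 bases had means of 1.32 FPKM after haloperidol, 1.27 in set I and 2.13 in set II. Mouse zinc finger genes of this kind occur in clusters of similar copies, so the assignment of reads to one of them is uncertain.

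The other 2 genes that fell against set I were short loci at low levels, and neither passed against all saline. Gm42883, a pseudogene of 222 bases, was listed at 0 in haloperidol replicate 1 and at 0.0384 to 0.0498 FPKM in the others, at 0.911 to 1.27 in set I and at 0.0648 to 0.754 in set II. Gm25529, annotated as a miRNA, was at 0 to 0.357 FPKM after haloperidol, at 0.353 to 1.22 in set I and at 0.153 to 0.404 in set II. In both genes set II lay below set I on average. With the block neither passed (adjusted p = 0.273 and 0.324).

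Of the 14 genes that fell against all saline, those with the lowest p beside 2210418O10Rik were Klf6, Pnrc1, Cttnbp2, Gm15758, Gm37051, Fem1c and RP23-172L21.2, with log2 differences from -0.58 to -0.23, and none of these passed against set I. The remaining 6 included the largest fall, that of the small nucleolar RNA Snord60, picked after its values were seen. Snord60 was at 18.9, 16.3, 77.9 and 51.3 FPKM after haloperidol, at 216, 82.4, 83.4 and 214 in set I and at 228, 275, 399 and 518 in set II. The log2 difference of Snord60 was -2.63 ± 0.56 against all saline (adjusted p = 0.0462, passing under 6 of 20 alternatives) and -1.96 ± 0.61 against set I (adjusted p = 0.539). Pnrc1, a coregulator of nuclear receptors, was at 13.04 to 15.4 FPKM after haloperidol, at 16.4 to 17.6 in set I and at 18.2 to 22.1 in set II. Cttnbp2, a cortactin-binding protein of dendritic spines, was at 10.5 to 13.2 FPKM after haloperidol, at 12.98 to 16.9 in set I and at 18.1 to 21.0 in set II. In both genes set II lay above set I, and the log2 differences against set I, -0.25 and -0.28, were smaller in size than those against all saline, -0.36 and -0.46.

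At the level of single transcripts, 15 rose and 6 fell against all saline among 84661 tested (0.0177% and 0.00709%, together 0.0248%), and none passed against saline set I with limma, where 4841 had an unadjusted p under 0.05 (5.72%). The main transcript of Fos, ENSMUST00000021674, was at 5.67 to 7.30 FPKM after haloperidol, at 2.79 to 3.55 in set I and at 2.74 to 3.75 in set II (log2 difference against all saline 0.76 ± 0.12, adjusted p = 0.0299). In this transcript the sets lay at similar levels, unlike the sum over the 4 Fos transcripts. Transcript ENSMUST00000055738 of Tsc22d3 (log2 difference 0.77 ± 0.13, adjusted p = 0.0338) and ENSMUST00000079413 of Fkbp5 (0.59 ± 0.11, adjusted p = 0.0406, but 0.0544 with the block, and passing under 7 of 20 alternatives) rose, and ENSMUST00000206382 of Gabra5, a GABA receptor subunit, fell by 0.90 (adjusted p = 0.0355), from 3.10 to 6.49 FPKM in saline to 1.31 to 2.39 FPKM after haloperidol.

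The gene sums and the transcripts gave different pictures of Arc. Its 2 annotated transcripts have 3055 and 3054 bases, and the estimates divided the same reads between them unevenly. ENSMUST00000110009 was at 4.76, 5.14, 7.40 and 12.3 FPKM after haloperidol and at 0.0211, 3.55, 3.58 and 0.00779 in set I, while ENSMUST00000023268 was at 12.01, 9.18, 5.72 and 3.33 and at 6.12, 3.54, 1.78 and 6.45. Neither transcript passed (adjusted p = 0.102 and 0.7 against all saline), although their sum passed in both comparisons.

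Haloperidol was then set beside the other antipsychotic, risperidone (0.5 mg/kg, the same vehicle), and methamphetamine (2 mg/kg in saline), which releases dopamine. The 3 drugs lie together on the first component, and each was given at its own dose. Against risperidone 2 genes were higher after haloperidol and none lower with limma (0.00543% of 36800), while 1823 genes had an unadjusted p under 0.05 (4.95%). These were Gm10309, at 2.32 to 3.04 FPKM against 1.01 to 1.64, and Gm14636, at 2.59 to 3.38 against 1.76 to 2.30 (adjusted p = 0.0369 for each, and 0.521 with the block), and both overlapped with saline. Of the 60 genes called against all saline, none passed against risperidone, with a median absolute log2 difference of 0.18. Arc differed from risperidone by 0.15 with a 95% interval of -0.19 to 0.49, Fosb by 0.15 (-0.09 to 0.40) and Egr1 by 0.32 (0.11 to 0.53, adjusted p = 0.728).

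Against methamphetamine, 1 gene was higher and 30 were lower after haloperidol (0.00272% and 0.0815%, together 0.0842% of 36800), with 6.93% at an unadjusted p under 0.05. Arc was at 21.4 to 36.4 FPKM after methamphetamine and at 13.1 to 16.8 after haloperidol, with a log2 difference of -0.85 ± 0.16 (adjusted p = 0.0316, and 0.0213 with the block). This call held under 5 of 14 alternatives, among them 1 of the 8 fits with 1 library left out. Klf10 was at 8.25 to 9.75 against 6.18 to 7.22 FPKM (adjusted p = 0.0321), and Pnrc1, which fell against all saline, was at 17.5 to 18.3 against 13.04 to 15.4 (adjusted p = 0.0401). The deiodinase Dio2, at 6.78 FPKM on average against 9.46, and the protease Adamts1, at 1.01 against 1.92, were lower as well, and Unk, an RNA-binding zinc finger protein, was higher, at 3.33 to 5.53 against 1.82 to 2.67. With the block, none of these but Arc passed (adjusted p from 0.0977 to 0.135).

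Most of the genes that were lower than after methamphetamine are not messenger RNAs. Of the 30, 19 are annotated as snRNA and 6 as protein-coding, and 21 have no transcript longer than 200 bases. The snRNA genes are near-identical copies of 107 bases among which reads cannot be assigned with certainty, and they count as few independent measurements. With the block, 4 genes passed against methamphetamine in place of 31. Fos and Fosb did not pass between these drugs, with log2 differences of -0.19 (95% interval -0.46 to 0.08) and 0.03 (-0.22 to 0.28), the latter changing sign under 4 of 14 alternatives.

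**Figure D3:**
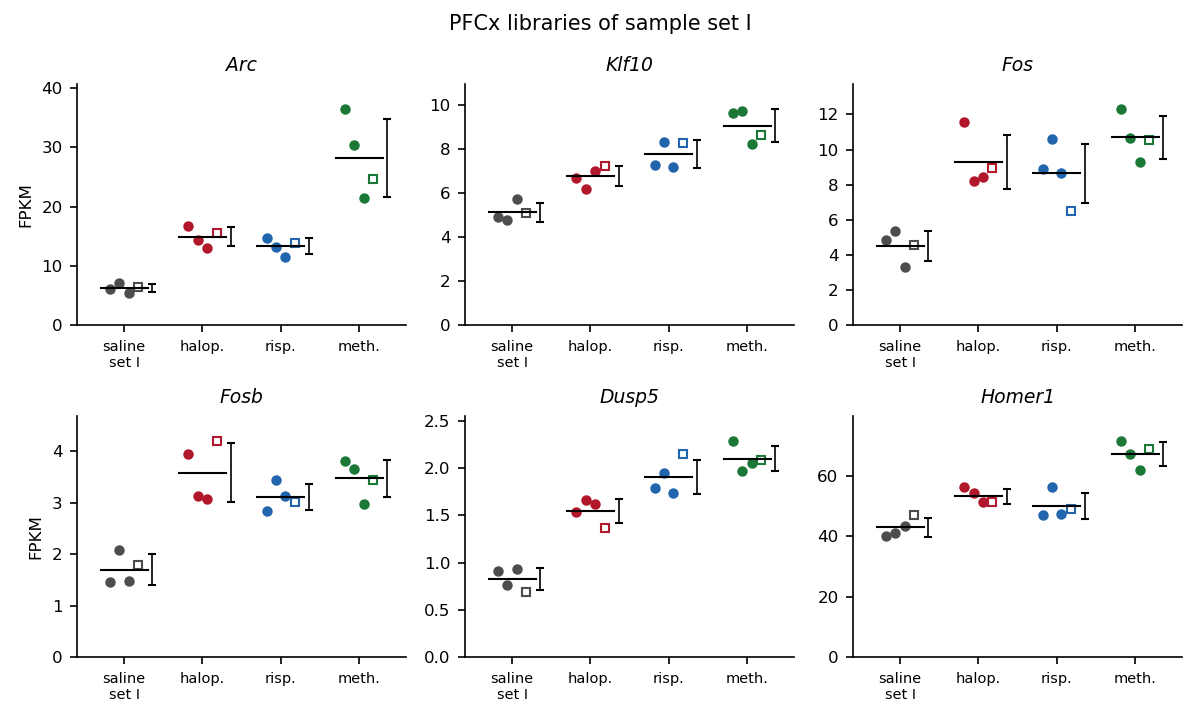
Level in FPKM (vertical axes, from 0) of 6 genes in the PFCx libraries of the 3 drugs and of saline set I. Points are libraries, open squares are the libraries numbered 4, lines are means and bars are ± 1 SD (n = 4). Arc is at 13.1 to 16.8 after haloperidol, at 11.6 to 14.7 after risperidone and at 21.4 to 36.4 after methamphetamine, while Fosb overlaps among the 3 drugs.

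The same drug was compared between tissues. The measure was the difference between the effect in the PFCx and that in the NAc, each against its own saline set I. The haloperidol and saline set I libraries of the NAc held 85287 to 87827 transcripts above 0, and those of the PFCx 108878 to 110378. Their estimated aligned sequence was 2.03 to 3.03 and 1.52 to 2.79 gigabases. The NAc libraries of risperidone and methamphetamine held 86558 to 87676 transcripts above 0. Those of saline set II, ketamine, mianserin and venlafaxine held 107099 to 110556, so the lower number was not common to all NAc libraries. The part of this gap in transcripts was not tested. Fewer genes were tested than the 36800 of the PFCx. Of 33268 genes tested, 3 had a smaller effect in the PFCx and none a larger one with limma (0.00902%), with 1651 at an unadjusted p under 0.05 (4.96%). These were Fosb, Nr4a1 and Shisa2. In the NAc, Fosb stood at 6.07, 6.498, 7.02 and 6.53 FPKM after haloperidol and at 0.947, 1.26, 1.02 and 0.863 in saline set I. The ratio of the means was 6.39 there and 2.11 in the PFCx, and the difference of the log2 effects was -1.14 ± 0.16 (adjusted p = 8.49e-05). Fosb passed this test under all 22 alternatives.

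Nr4a1 was at 11.7 to 13.5 FPKM after haloperidol and at 3.19 to 4.52 in saline in the NAc, and the difference of the effects was -0.82 ± 0.16 (adjusted p = 0.0382), which passed under 10 of 22 alternatives. Shisa2, a membrane protein, was not called in the PFCx, at 0.291 to 0.515 FPKM after haloperidol and 0.427 to 0.590 in set I, and was at 1.73 to 2.22 against 0.691 to 1.14 in the NAc (difference -0.78 ± 0.12, adjusted p = 0.000219). Fos, Junb and Arc did not pass under any of the 22 alternatives. Fos had a difference of -0.87 (95% interval -1.28 to -0.47, adjusted p = 0.139), Junb of -0.79 (-1.26 to -0.32, adjusted p = 0.597) and Arc of -0.56 (-0.98 to -0.15, adjusted p = 0.785). With the replicate number of each tissue as a block, 7 genes passed, Fosl2 (adjusted p = 0.00235) and Nr4a3 (adjusted p = 0.00125) among them. Without it Fosl2 was at an adjusted p of 0.0581 and passed under 3 of the other alternatives, and Nr4a3 was at 0.12 and passed under none.

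**Figure D4:**
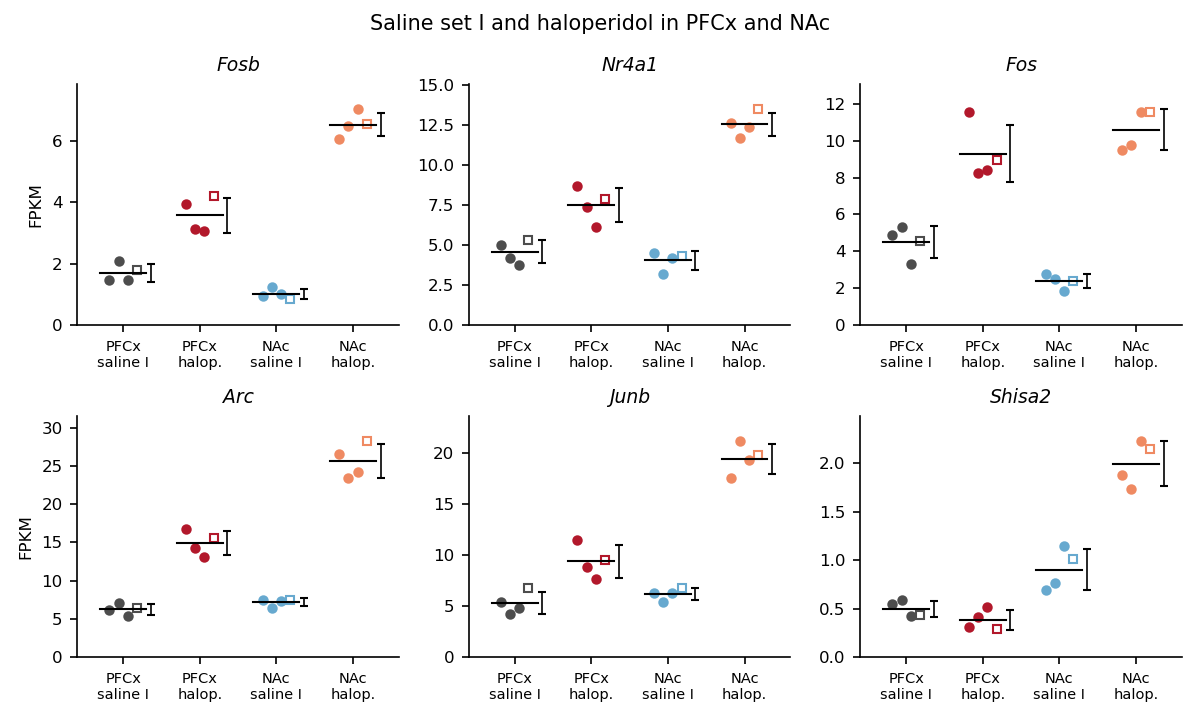
Level in FPKM (vertical axes, from 0) of 6 genes in the saline set I and haloperidol libraries of the PFCx and the NAc. Points are libraries, open squares are the libraries numbered 4, lines are means and bars are ± 1 SD (n = 4). The mean of Fosb is 1.70 in saline and 3.58 after haloperidol in the PFCx, and 1.02 and 6.53 in the NAc.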

How the data were processed

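The authors sequenced ribosome-depleted total RNA on an Ion platform, aligned the single-end reads with TopHat 2.0.1 and then Tmap, and estimated transcripts with Cufflinks 2.2.1 on the Ensembl annotation of GRCm38 (mm10). They deposited FPKM values per transcript, scaled by mapped fragments, and the read coverage (signal) of each transcript, and dividing coverage by FPKM, with the median over transcripts, gave an estimate of the aligned bases. The tables hold no read counts, so counting error is unknown. FPKM was summed per gene name. Transcripts whose estimate failed in a library were left out, and so were features with a mean under 0.1 FPKM over the 32 PFCx libraries. log2(FPKM + 1) was fitted with limma 3.58.1 in R 4.3.3, with Benjamini-Hochberg adjustment over all features and a threshold of 0.05. Against all saline the fit held 7 groups of the 32 libraries, and against saline set I, risperidone or methamphetamine 8 groups, so the spread was estimated from all of them. The difference between tissues was fitted over 64 libraries in 16 groups. The fits were tested on simulated data.

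The replicate numbers of the labels were taken to pair the libraries within the sample set, since deviations from the group means correlated between same-numbered haloperidol and saline set I libraries at 0.156, 0.2, 0.205 and 0.638, against a mean of -0.0927 for other numbers. With saline set II the values were 0.0489, 0.0079, 0.12 and -0.0361. Against all saline the block took in saline set II as well, although these values show little pairing. Calls that the block changed against all saline, such as those of Egr1, Egr3 and Zbtb16, therefore rest on a pairing not shown for set II.

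The members and gene lists were chosen with earlier results of these data known. Genes were named when called in both comparisons in 1 direction (up to 15 per direction), filled to 10 per direction with those called against set I alone and then against all saline alone, by p, and when members of the 13 function or 12 marker lists. The transcript rule named the 15 Dclk1 transcripts and found no other passing both tests, and the other transcripts, together with Spns2, Snord60, Gm25289 and the genes of the drug and tissue comparisons, were chosen after their values were seen. Biotypes came from GENCODE vM21. Alternatives were a pseudocount of 0.1, a mean of at least 1 FPKM, no filter, 75th percentile scaling, a mean-variance trend, only the compared libraries, the replicate block, leaving out each library and, added after seeing the data, leaving out the libraries numbered 4. Map2 was left out for a failed estimate, and Tubb3 and Mvd were not analysed here.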

Additional observations from a re-analysis of the deposited data

Results flagged for a closer look

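In 13 of 180 groups of 4 libraries (60 genes named or listed here, in haloperidol, saline set I and saline set II), 1 library lay far from the other 3 by Dixon's criterion, which chance meets in about 1 in 20 groups. In the haloperidol group these were Dusp6 in replicate 2 at 9.18 FPKM (the others from 9.90), Gm25529 in replicate 4 at 0.357 (the others up to 0.0579), Egr2 in replicate 2 at 3.56 (up to 2.28), Npas4 in replicate 3 at 2.54 (from 3.04), Spred2 in replicate 4 at 13.9 (up to 12.6) and Hif3a in replicate 2 at 2.32 (up to 1.46). In saline set I they were Arl4d in replicate 3 at 1.02, Klf15 in replicate 3 at 2.36 and Msmo1 in replicate 2 at 17.2. In saline set II they were Dusp5 in replicate 4 at 0.978, Cttnbp2 in replicate 4 at 21.0, Egr3 in replicate 1 at 13.5 and Fosl2 in replicate 1 at 3.53.

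The effect of haloperidol differed between PFCx and NAc, by the test of the difference, for Fosb (-1.14 on the log2 scale), Nr4a1 (-0.817) and Shisa2 (-0.776). Fosb and Nr4a1 were higher after haloperidol in every library of both tissues, and Shisa2 in every library of the NAc. These NAc libraries held fewer transcripts above 0 than those of the PFCx and than the NAc libraries of saline set II. The part of this was not tested.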

How the results depend on the processing

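The log2 differences of 72 genes and transcripts against all saline, 71 against set I, 5 against risperidone, 9 against methamphetamine and 8 between tissues were recomputed, and only that of Fosb against methamphetamine (0.03) changed sign, to -0.036 without the libraries numbered 4 and within -0.033 to 0.0843 with 1 library left out (-0.00989 and -0.033 without haloperidol replicates 1 and 4, and -0.0251 without methamphetamine replicate 3). Levels given with no difference, such as those of the receptors, were not among them. Against all saline, the 60 genes became 11 with a pseudocount of 0.1, 98 with a mean of at least 1 FPKM, 0 with only the compared libraries (3731 at an unadjusted p under 0.05) and 9 without the libraries numbered 4, and they ranged from 8 to 380 when 1 library was left out (8 without haloperidol replicate 1, 16 without replicate 2, 30 without replicate 3, 20 without replicate 4, 31, 28 and 18 without saline set II replicates 2, 3 and 4, and 380, 267 and 110 without saline set I replicates 2, 3 and 4). The 8 genes against saline set I became 5, 2 and 4 with the pseudocount of 0.1, only the compared libraries and no libraries numbered 4, and 0 to 10 with 1 library left out (0 without haloperidol replicate 1, 5 without replicate 2, and 5, 3 and 3 without saline set I replicates 1, 2 and 3).

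The replicate block gave 71 genes against all saline, 4 against saline set I, 1 against risperidone, 4 against methamphetamine and 7 for the difference between tissues, and 22 and 0 transcripts. Of the 8 genes called against set I, 2 were also called with the block. Against all saline, the calls of named genes and transcripts that it changed are given beside the results. There the block also took in saline set II, whose numbers showed little pairing with haloperidol.

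Against risperidone, the 2 genes became 0 with a pseudocount of 0.1 or 75th percentile scaling and 1 with no filter or without the libraries numbered 4, and ranged from 0 to 4 with 1 library left out (0 without haloperidol replicate 4 or risperidone replicate 2 or 3, 1 without haloperidol replicate 1 and 4 without replicate 3). Against methamphetamine, the 31 became 1 with a pseudocount of 0.1 and 4 without the libraries numbered 4, and ranged from 2 to 28 (18, 19 and 2 without haloperidol replicates 1, 2 and 4, and 2, 9 and 13 without methamphetamine replicates 1, 2 and 4). For the difference between tissues the range was 2 to 7, with 7 without PFCx saline set I replicate 3.

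The 21 transcripts against all saline became 6 with a pseudocount of 0.1, 43 with a mean of at least 1 FPKM, 9 with 75th percentile scaling or a mean-variance trend, and 0 with only the compared libraries (7363 at an unadjusted p under 0.05) or without the libraries numbered 4. With 1 library left out they ranged from 2 to 91 (7, 10 and 4 without haloperidol replicates 1, 2 and 4, 3, 10, 2 and 4 without saline set II replicates 1 to 4, and 34, 91, 50 and 40 without saline set I replicates 1 to 4). The 0 transcripts against set I became 3 with no filter and 1 without the libraries numbered 4, and ranged from 0 to 9 (1 and 9 without haloperidol replicates 1 and 3, 4 and 2 without saline set I replicates 2 and 4). The cause of these shifts was not tested.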
